A study of Danio rerio with 15 samples.

Results

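The organic solute carriers are membrane proteins of the SLC and SLCO families that move sugars, amino acids, carboxylates, vitamins, nucleosides, drugs and other small organic molecules. They were chosen by gene symbol, from the SLC families known to carry organic substrates and from all genes named slco, except slc6a19b and slc22a2. Of the 5686 genes listed, 95 met this rule, and the rule used no measured value. By family they fell into 21 carriers of amino acids, 19 of carboxylates and bile acids, 17 of organic anions and cations, 16 of sugars and polyols, 7 of neurotransmitters, osmolytes and creatine, 5 of nucleosides and nucleobases, 5 of vitamins, 2 of peptides, 2 of nucleotide sugars, and slc5a5, which carries iodide.

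Whole kidneys of 6-month-old zebrafish of the AB strain, without a transgene or mutation, were sequenced as polyA RNA in 5 groups of 3 samples. 1 group was uninjured and the others were taken at 1, 3, 5 and 7 days post injury (dpi). Acute kidney injury was caused by injection of gentamicin, an aminoglycoside antibiotic that is toxic to the proximal tubule, into the body cavity. The injured fish had been selected for proteinuria at 1 dpi. The injection of control fish, their sex, and the number of kidneys per library are not given in the sources used here. The methods call the 3 samples of a group biological replicates without saying whether each came from separate fish, so p-values measure the spread between these samples, which may be technical.

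In the vertebrate kidney, organic solutes are filtered at the glomerulus and taken back by the proximal tubule. Carriers in the brush border move them into the cell, often coupled to sodium or protons, and carriers in the basolateral membrane pass them to the blood, while anion and cation carriers work the other way and secrete drugs and waste. The functions given below are those of the mammalian proteins of the same family and number unless a zebrafish protein is named. Values are FPKM, read counts divided by gene length and library size, so levels can be compared between genes. A log2 change is a difference of mean log2(FPKM + 1), given with ± its standard error from limma, which understates the change of genes near 0.

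The 15 libraries held 13875548 to 16367612 reads behind the FPKM, so that 1 read of a gene of 2000 bases was worth 0.0305 to 0.0360 FPKM. The table is not a full gene list and holds mostly genes that differed among the groups, so adjusted p-values can be too small: 64.5% of the 5685 genes tested passed an F-test over the 5 groups, at a limma adjusted p below 0.05. Of 13 proximal tubule markers, 11 were listed, none at 0. Their mean log2(FPKM + 1) lay between 5.67 and 5.78 in uninjured kidneys, 4.65 and 5.24 at 1 dpi, 4.07 and 4.29 at 3 dpi, 3.84 and 5.01 at 5 dpi, and 4.23 and 4.41 at 7 dpi. Markers of the distal tubule and of the endothelium were not listed and were not checked. In bulk tissue, fewer tubule cells and less RNA per cell cannot be told apart. The 15 ovary genes listed had summed FPKM of 1242, 2.36 and 1947 in uninjured kidneys, 25.4, 635 and 5.77 at 1 dpi, 2.39, 15.2 and 2.05 at 3 dpi, 964, 4.05 and 3.42 at 5 dpi and 207, 159 and 278 at 7 dpi. The 9 liver and plasma genes summed to 563 FPKM in uninjured replicate 1 and to between 39.3 and 205 in the other libraries.

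Calls of lower carriers outnumbered calls of higher ones at each time after injury, by 14 to 13 at 1 dpi. The count of falls was highest at 7 dpi, at 41 of 95 (43.2%). The share of falls among all genes tested was also highest then, at 12.4%. Together the carriers took 0.957% to 1.54% of all reads in uninjured kidneys, 0.948% to 1.33% in the 1 dpi libraries, 0.576% to 0.864% in the 3 dpi libraries, 0.394% to 0.807% in the 5 dpi libraries and 0.441% to 0.463% in the 7 dpi libraries. The libraries at 3, 5 and 7 dpi were all below the lowest uninjured library, and those at 1 dpi overlapped with the uninjured ones. After 1 dpi the listed genes as a whole also lost share. Their highest later value was 23.1% of all reads, in 3 dpi replicate 3, and their lowest uninjured value 24.8%. Of the reads in listed genes, carriers held 3.92% in 3 dpi replicate 1, above the 3.78% of uninjured replicate 3. By this measure the 3 dpi libraries overlapped with the uninjured ones, while every library at 5 and 7 dpi stayed below them. The shares at 1 dpi were raised by a single gene, slc16a6b. It held 31746, 34088 and 43675 of the 149084, 153082 and 201099 carrier reads there, against 346, 601 and 336 reads in uninjured kidneys. Of 10 intestine markers, 5 were listed, with mean log2(FPKM + 1) of 3.46 to 4.0003 in uninjured kidneys, 3.85 to 4.16 in the 1 dpi libraries, 3.03 to 3.32 in the 3 dpi libraries, 2.79 to 3.31 in the 5 dpi libraries and 3.11 to 3.204 in the 7 dpi libraries. They include slc15a1b, itself one of the 95 carriers, and vil1, which is also among the brush border genes below. The list is therefore not a separate measure of gut tissue. The 4 neutrophil and macrophage genes listed summed to 1192 to 1364 FPKM in uninjured kidneys, 1136 to 1550.4 in the 1 dpi libraries, 1828 to 2172 in the 3 dpi libraries, 2289.8 to 2964 in the 5 dpi libraries and 1699.7 to 2479 in the 7 dpi libraries. The 6 interstitial cell genes summed to 211, 66.1 and 67.2 FPKM in uninjured replicates 1, 2 and 3. Their sums were 86.4 to 93.4 in the 1 dpi libraries, 109 to 149 in the 3 dpi libraries, 165 to 254 in the 5 dpi libraries and 144 to 250.1 in the 7 dpi libraries. The gene fabp10a is on this list and on that of the liver and plasma genes, which were also highest in uninjured replicate 1. Of 25 pancreas genes, 15 were listed, and their mean log2(FPKM + 1) was 4.37 in uninjured replicate 1, 4.36 and 4.08 in 1 dpi replicates 1 and 2 and 4.64 in 3 dpi replicate 2, against 0.969 to 2.54 in the other libraries. The part of these cells in the carriers' levels was not tested. All 95 carriers were above 0 FPKM in at least 3 samples and were tested, and 71 of them (74.7%) passed the F-test over the 5 groups, against 64.5% of all genes.

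At 1 dpi, 13 carriers rose and 14 fell in limma at an adjusted p below 0.05, which was 13.7% and 14.7% of the 95. Among all 5685 genes tested, 12.9% rose and 6.9% fell, so the share of rises was near that of the table. At 3 dpi, 2 carriers rose and 23 (24.2%) fell, against 6.4% and 6.91% of all genes. At 5 dpi, 2 rose and 5 (5.26%) fell, against 6.7% and 1.46%. At 7 dpi, 1 rose and 41 (43.2%) fell, against 4.78% and 12.4%. Between 7 dpi and 3 dpi, 4 carriers were higher at 7 dpi and 12 (12.6%) lower, against 10.2% and 6.49% of all genes. All 4 comparisons with uninjured kidneys used the same 3 uninjured samples.

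**Figure D1:**
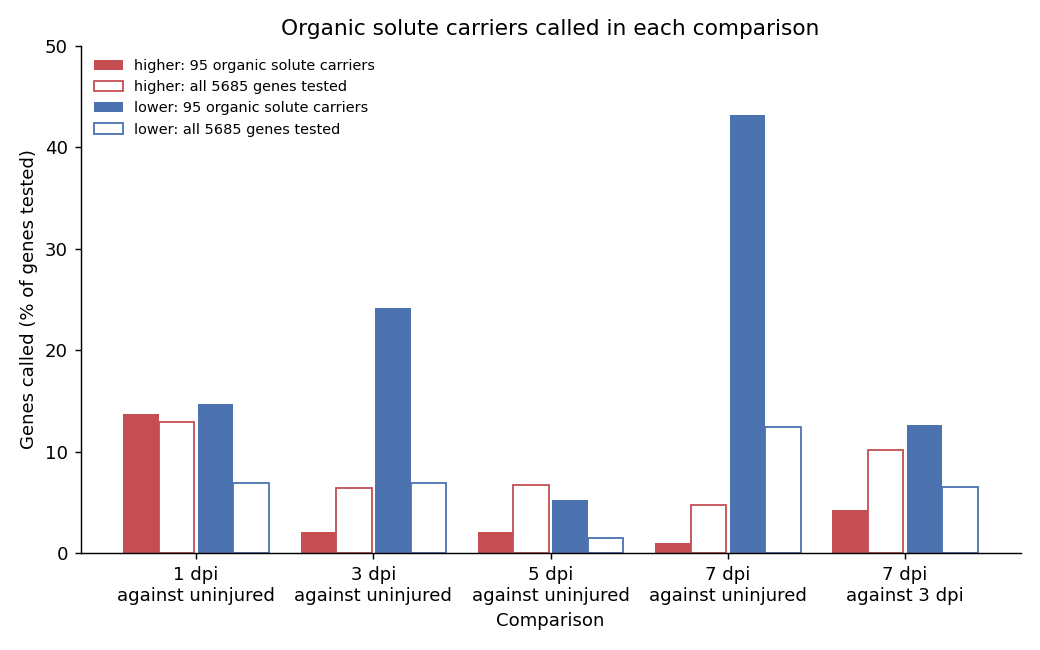
Percentage of genes called higher (red) or lower (blue) in each comparison, for the 95 organic solute carriers (filled bars) and for all 5685 genes tested (open bars). The filled blue bar is tallest at 7 dpi, where 43.2% of the carriers were lower than in uninjured kidneys, against 12.4% of all genes.

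At 1, 3, 5 and 7 dpi the median log2 change of the carriers was -0.42, -0.63, -0.76 and -0.96, beside medians of all genes of -0.09, -0.13, -0.09 and -0.22. Relative to all genes, the carriers' median was therefore -0.33, -0.50, -0.67 and -0.74. Single libraries also moved the carriers' own medians. The 5 dpi median was -0.523 without 5 dpi replicate 3, -0.537 without uninjured replicate 2 and -0.887 without 5 dpi replicate 1. For 3 dpi, the medians with 1 sample left out lay between -0.789 and -0.55. Which of these 2 times had the lower median thus depended on the libraries used. Quantile normalization raised the median of all genes by 0.20 at 3 dpi and by 0.16 at 7 dpi and left the carriers at -0.48 and -0.65 relative to it. With it, 18 carriers fell at 3 dpi and 23 at 7 dpi, and median-of-ratios scaling gave 17 and 27. At 1 dpi, quantile normalization gave 10 rises and 18 falls. At 5 dpi, median-of-ratios scaling gave 1 rise and 5 falls. Both scalings used only the listed genes, of which 64.5% passed the F-test. They cannot show how scaling on a full gene list would move these counts.

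Leaving out a single library moved these counts. At 1 dpi the count of 27 calls fell to 10 without uninjured replicate 1, 16 without 1 dpi replicate 1 and 10 without 1 dpi replicate 2. The count of 25 at 3 dpi fell to 6 without uninjured replicate 1, 9 without uninjured replicate 3 and 13, 3 and 9 without 3 dpi replicates 1, 2 and 3. The count of 7 at 5 dpi fell to 0 without uninjured replicate 1 or 2 or 5 dpi replicate 2, to 4 without uninjured replicate 3 and to 1 without 5 dpi replicate 3. At 7 dpi the count of 42 fell to 14 without uninjured replicate 1, 0 without 7 dpi replicate 1 or 3 and 3 without 7 dpi replicate 2. Without 7 dpi replicates 1, 2 and 3, 55, 49 and 56 carriers still had an unadjusted limma p below 0.05, against 60 in the full fit. The carriers' median log2 change was then -0.985, -0.841 and -0.925. Each such fit also has 1 sample fewer, and the part of this in the lost calls was not tested. The count of 16 between 7 dpi and 3 dpi fell to 7 without 3 dpi replicate 3 and to 9, 8 and 4 without 7 dpi replicates 1, 2 and 3. No called change turned its sign in these fits. Where groups do not overlap, leaving out 1 sample cannot turn the sign, so this does not show how firm such calls are. The calls that passed without each sample in turn were 9 at 1 dpi, 3 at 3 dpi, 0 at 5 dpi, 0 at 7 dpi and 4 between 7 dpi and 3 dpi. For each call of a carrier named below, the highest adjusted p among these 6 fits is given after the word leave-one-out. Through the adjustment this value depends on all genes of a fit. Several carriers, such as slc2a2, slc5a12 and slc23a1 at 7 dpi, share the value 0.0753, so it is not a measure of the single gene alone.

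**Figure D2:**
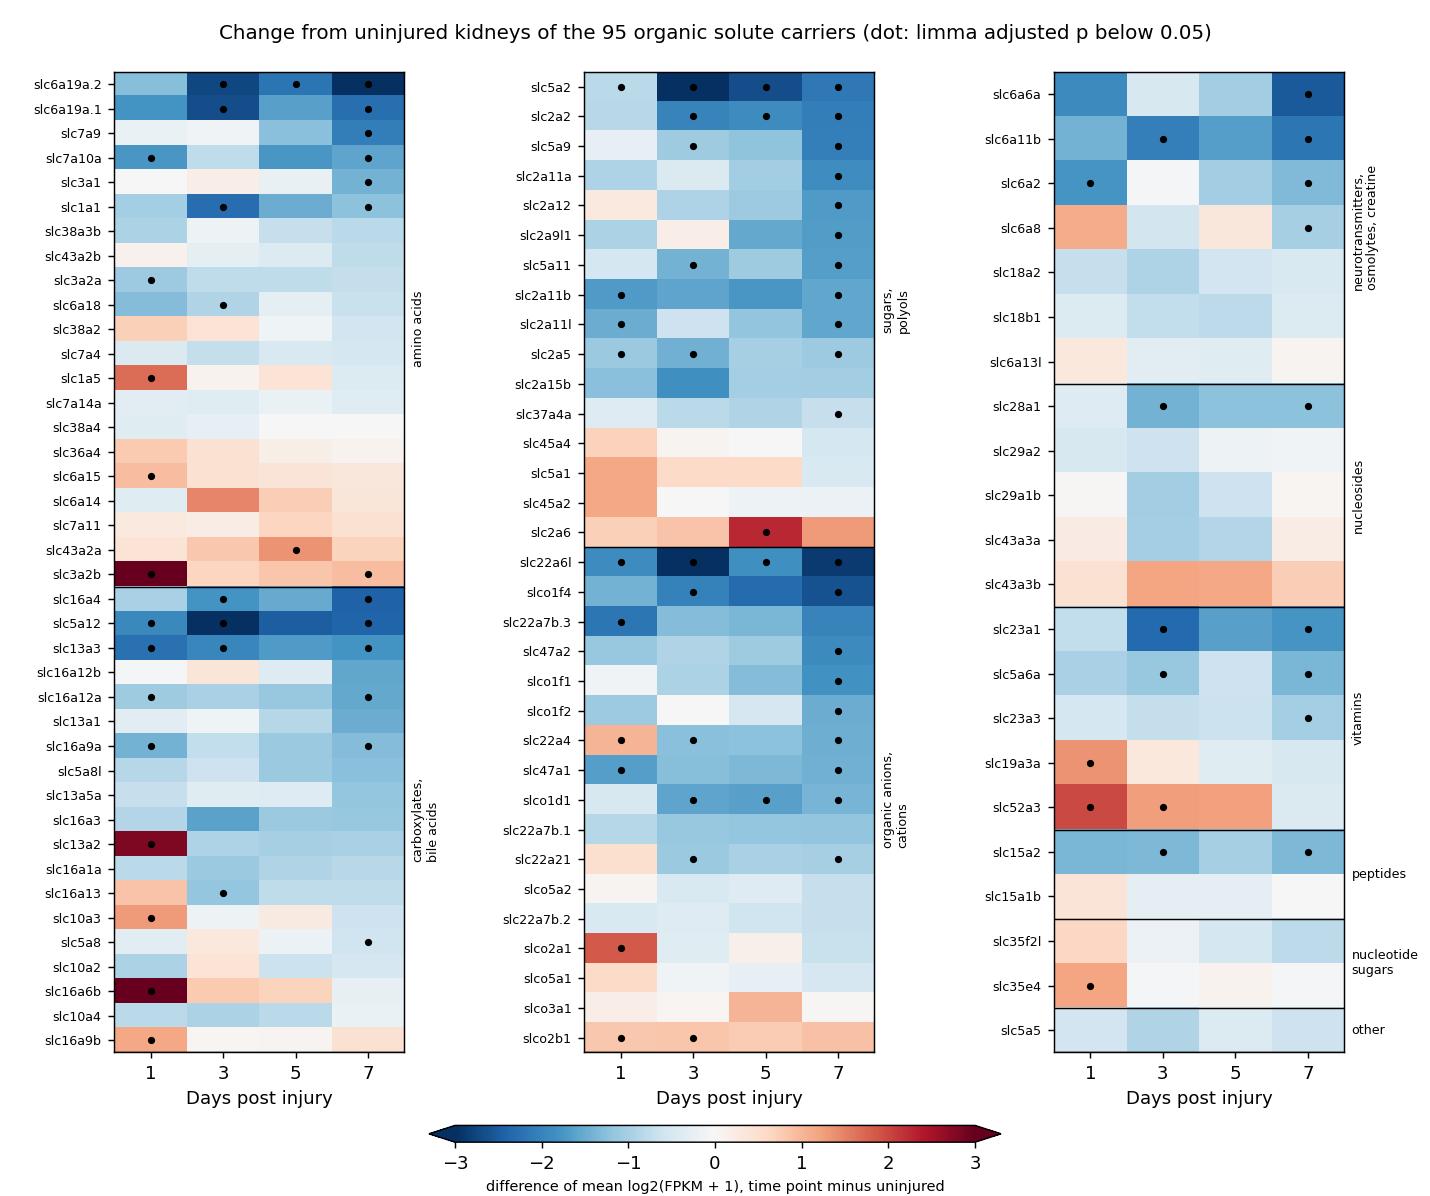
Difference of mean log2(FPKM + 1) between each time point and uninjured kidneys for the 95 carriers, 1 row per gene, grouped by substrate class and ordered by the 7 dpi value; columns are days post injury, and colour runs between -3 and 3. Dots mark a limma adjusted p below 0.05. Blue fills most of the 7 dpi columns, while the darkest red cells, slc16a6b, slc3a2b and slc13a2, are at 1 dpi.

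Carriers of amino acids had 3 rises and 2 falls at 1 dpi, 0 and 4 at 3 dpi, 1 and 1 at 5 dpi and 1 and 6 at 7 dpi, among 21. Among all genes tested, 12.9% rose and 6.9% fell at 1 dpi, and 6.4% and 6.91% at 3 dpi. The shares were 6.7% and 1.46% at 5 dpi and 4.78% and 12.4% at 7 dpi. These shares also stand beside the counts of each class below, and at 1 dpi the amino acid carriers were near them. Their summed FPKM were 472 to 714 in uninjured kidneys, 605 to 776 in the 1 dpi libraries, 397 to 518 in the 3 dpi libraries, 338 to 537 in the 5 dpi libraries and 298 to 338 in the 7 dpi libraries. The 2 zebrafish genes for the 4F2 heavy chain, the subunit that brings several amino acid exchangers of the SLC7 family to the cell surface, moved in opposite directions at 1 dpi. slc3a2b (ENSDARG00000037012, chromosome 21, bases 26684674 to 26689182) had 17.8, 24.2 and 17.6 FPKM in uninjured kidneys. The 1 dpi samples had 227, 182 and 146, the 3 dpi samples 29.04, 34.04 and 30.2, the 5 dpi samples 31.4, 34.6 and 42.9 and the 7 dpi samples 38.1, 35.6 and 40.5. All 3 libraries at 1 dpi were far above the other 12, and the mean was 9.33 times that of uninjured kidneys (log2 change 3.15 ± 0.24, adjusted p = 0.00073, leave-one-out 0.0065). It was still higher at 7 dpi, by a smaller change (0.92 ± 0.18, adjusted p = 0.029, leave-one-out 0.095). slc3a2a had 121, 120.3 and 100.5 FPKM in uninjured kidneys. Samples at 1 dpi had 61.7, 49.5 and 48.6, those at 3 dpi 71.8, 54.2 and 76.8, those at 5 dpi 79.8, 58.6 and 62.99 and those at 7 dpi 61.5, 102 and 51.4. Every injured library but 7 dpi replicate 2 was at 79.8 FPKM or less, and the change at 1 dpi passed the test (-1.08 ± 0.20, adjusted p = 0.014, leave-one-out 0.055).

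slc1a5, an exchanger of neutral amino acids such as glutamine, had 34.8, 44.7 and 36.2 FPKM in uninjured kidneys. After injury, slc1a5 had 111, 111 and 154 in the 1 dpi samples, 34.9, 52.4 and 38.7 in the 3 dpi samples, 56.4, 50.7 and 45.97 in the 5 dpi samples and 27.04, 26.7 and 32.6 in the 7 dpi samples. It rose at 1 dpi (1.67 ± 0.22, adjusted p = 0.0046, leave-one-out 0.025), and the 7 dpi libraries lay below the uninjured ones without passing the test (-0.41 ± 0.17, adjusted p = 0.15). slc6a15, a sodium-coupled carrier of branched-chain amino acids, was low throughout and had 0.884, 1.66 and 1.67 FPKM at 1 dpi, against 0.378, 0.225 and 0.174 in uninjured kidneys (0.92 ± 0.19, adjusted p = 0.019, leave-one-out 0.068). slc7a11, the cystine and glutamate exchanger that pairs with the 4F2 heavy chain, had 2.703, 3.01 and 2.81 FPKM at 5 dpi and 1.55, 1.28 and 1.604 in uninjured kidneys, with no call (0.63 ± 0.16, adjusted p = 0.07).

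slc6a19a.1 and slc6a19a.2 are neighbouring copies of the main neutral amino acid carrier of the proximal tubule, which is defective in human Hartnup disorder. slc6a19a.2 had 34.7, 44.3 and 32.5 FPKM in uninjured kidneys. For slc6a19a.2, the 1 dpi samples held 6.94, 11.3 and 38.4, the 3 dpi samples 9.86, 4.88 and 1.95, the 5 dpi samples 12.5, 9.56 and 2.96 and the 7 dpi samples 2.998, 4.499 and 4.01. It fell at 3 dpi (-2.72 ± 0.47, adjusted p = 0.021, leave-one-out 0.081), 5 dpi (-2.19 ± 0.48, adjusted p = 0.046, leave-one-out 0.12) and 7 dpi (-2.98 ± 0.21, adjusted p = 0.016, leave-one-out 0.075), while 1 dpi replicate 3 stayed within the uninjured range. slc6a19a.1 fell at 3 dpi (-2.65 ± 0.60, adjusted p = 0.04, leave-one-out 0.12) and 7 dpi (-2.27 ± 0.39, adjusted p = 0.023, leave-one-out 0.084). slc1a1, which takes up glutamate and aspartate, had 37.2, 36.6 and 24.7 FPKM in uninjured kidneys. Injured kidneys had slc1a1 at 20.3, 11.01 and 16.002 in the 1 dpi samples, 4.47, 8.16 and 5.27 in the 3 dpi samples, 18.01, 15.1 and 4.45 in the 5 dpi samples and 13.5, 12.5 and 13.6 in the 7 dpi samples. It fell at 3 dpi to 0.182 of the uninjured mean (-2.29 ± 0.28, adjusted p = 0.01, leave-one-out 0.046), and at 7 dpi (-1.23 ± 0.20, adjusted p = 0.022, leave-one-out 0.083) it lay between the 3 dpi and the uninjured libraries. slc6a18, a neutral amino acid carrier beside the slc6a19a copies, had 16.9, 12.5 and 15.2 FPKM at 3 dpi, against 22.8, 29.6 and 34.7 in uninjured kidneys (-0.91 ± 0.22, adjusted p = 0.045, leave-one-out 0.14), was not called at another time and did not pass the F-test (adjusted p = 0.157). slc7a10a, whose mammalian relative exchanges small neutral amino acids, fell at 1 dpi (-1.74 ± 0.35, adjusted p = 0.018, leave-one-out 0.061) and 7 dpi (-1.58 ± 0.40, adjusted p = 0.046, leave-one-out 0.13).

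slc3a1 and slc7a9 encode the 2 subunits of the carrier that takes back cystine and basic amino acids, and mutation of either causes cystinuria in humans. slc7a9 (ENSDARG00000005894, chromosome 7, bases 38235748 to 38415134) had 60.1, 133 and 50.2 FPKM in uninjured kidneys. The 1 dpi samples had 66.5, 44.8 and 89.97, the 3 dpi samples 85.8, 41.1 and 91.9, the 5 dpi samples 44.8, 47.02 and 12.9 and the 7 dpi samples 19.1, 17.03 and 14.2. slc3a1 had 41.7, 96.4 and 46.1 FPKM in uninjured kidneys. Samples at 1 dpi had 58.1, 41.5 and 76.7, those at 3 dpi 70.04, 45.5 and 88.7, those at 5 dpi 67.3, 58.9 and 29.7 and those at 7 dpi 22.7, 17.6 and 21.96. Both genes overlapped the uninjured range at 1 and 3 dpi, and both were below every uninjured and 3 dpi library at 7 dpi. Against uninjured kidneys, slc7a9 fell at 7 dpi (-2.08 ± 0.38, adjusted p = 0.024, leave-one-out 0.087) and so did slc3a1 (-1.43 ± 0.34, adjusted p = 0.041, leave-one-out 0.12). Against 3 dpi, the changes were -1.98 ± 0.33, adjusted p = 0.011, leave-one-out 0.05 for slc7a9 and -1.62 ± 0.27, adjusted p = 0.011, leave-one-out 0.044 for slc3a1. A different course was seen in slc43a2a, a facilitative carrier of branched-chain amino acids, which had 59.16, 34.8 and 46.7 FPKM at 5 dpi and 12.8, 20.2 and 20.2 in uninjured kidneys (1.35 ± 0.28, adjusted p = 0.042, leave-one-out 0.12).

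Carriers of carboxylates and bile acids held the largest rise of all 95 carriers and some of the largest falls. Of 19, 4 rose and 4 fell at 1 dpi, 0 rose and 4 fell at 3 dpi, 0 were called at 5 dpi and 0 rose and 6 fell at 7 dpi. slc16a6b (ENSDARG00000060246, chromosome 3, bases 36183934 to 36199074) belongs to the monocarboxylate transporter family, and its zebrafish paralogue slc16a6a exports ketone bodies from the liver. slc16a6b had 5.08, 8.11 and 4.82 FPKM in uninjured kidneys. After injury, slc16a6b had 411, 434 and 586 in the 1 dpi samples, 15.02, 6.35 and 13.01 in the 3 dpi samples, 9.77, 8.79 and 11.5 in the 5 dpi samples and 5.34, 4.03 and 5.104 in the 7 dpi samples. The 3 libraries at 1 dpi stood at 411 FPKM or more and the other 12 at 15.02 or less. The 1 dpi mean was 79.6 times the uninjured mean (6.11 ± 0.26, adjusted p = 0.00021, leave-one-out 0.0035), and no later time point was called.

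slc13a2, a sodium-coupled carrier of citrate and succinate, had 2.75, 0.765 and 1.17 FPKM in uninjured kidneys. For slc13a2, the 1 dpi samples held 10.8, 22.04 and 16.6, the 3 dpi samples 0.119, 0.394 and 0.365, the 5 dpi samples 0.271, 0.212 and 0.202 and the 7 dpi samples 0.287, 0.405 and 0.0719. It rose 10.6-fold at 1 dpi (2.79 ± 0.40, adjusted p = 0.006, leave-one-out 0.027), and all 9 later libraries were below the lowest uninjured value without a call. slc10a3, whose substrate is not known, rose at 1 dpi, with 21.3, 22.9 and 38.01 FPKM against 9.73, 12.9 and 9.02 in uninjured kidneys (1.27 ± 0.29, adjusted p = 0.028, leave-one-out 0.088). slc16a9b rose at 1 dpi (1.15 ± 0.28, adjusted p = 0.033, leave-one-out 0.099), whereas its more abundant paralogue slc16a9a fell (-1.41 ± 0.38, adjusted p = 0.045, leave-one-out 0.13). The mammalian carrier of that number moves carnitine. slc16a9a had 68.7, 86.2 and 164 FPKM at 1 dpi and 112, 91.7 and 118 at 7 dpi, against 356, 248 and 209 in uninjured kidneys, and fell at 7 dpi as well (-1.304 ± 0.25, adjusted p = 0.026, leave-one-out 0.089).

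slc5a12 (ENSDARG00000005004, chromosome 25, bases 34970048 to 35019227), the low-affinity sodium-coupled carrier of lactate in the proximal tubule, had 252, 309 and 229 FPKM in uninjured kidneys. Injured kidneys had slc5a12 at 61.98, 66.8 and 75.3 in the 1 dpi samples, 28.5, 17.5 and 32.3 in the 3 dpi samples, 87.5, 66.5 and 16.9 in the 5 dpi samples and 32.02, 68.8 and 50.7 in the 7 dpi samples. No injured library reached the uninjured range. It fell at 1 dpi (-1.93 ± 0.20, adjusted p = 0.0019, leave-one-out 0.013), 3 dpi (-3.32 ± 0.27, adjusted p = 0.0084, leave-one-out 0.042) and 7 dpi (-2.41 ± 0.31, adjusted p = 0.016, leave-one-out 0.075), and at 3 dpi the mean was 0.0991 of that of uninjured kidneys. slc13a3, the basolateral carrier of dicarboxylates, had 106, 172 and 99.4 FPKM in uninjured kidneys. The 1 dpi samples had 16.1, 26.3 and 36.5, the 3 dpi samples 40.2, 25.6 and 28.4, the 5 dpi samples 45.8, 56.6 and 18.8 and the 7 dpi samples 28.4, 41.4 and 35.1. It fell at 1 dpi (-2.24 ± 0.36, adjusted p = 0.0092, leave-one-out 0.034), 3 dpi (-1.95 ± 0.29, adjusted p = 0.016, leave-one-out 0.072) and 7 dpi (-1.79 ± 0.27, adjusted p = 0.02, leave-one-out 0.079), again with no overlap. slc16a4, a further member of the monocarboxylate family, fell at 3 dpi (-1.796 ± 0.40, adjusted p = 0.036, leave-one-out 0.11) and had 9.91, 16.3 and 15.2 FPKM at 7 dpi, against 73.3, 104 and 59.96 in uninjured kidneys (-2.43 ± 0.28, adjusted p = 0.016, leave-one-out 0.075).

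slc13a1 was the most abundant carrier of this class, with a mean of 239 FPKM over the 15 samples, although the mammalian protein of that number carries sulfate. It had 313, 578 and 155 FPKM in uninjured kidneys. Samples at 1 dpi had 234, 260.5 and 235, those at 3 dpi 349, 176 and 356, those at 5 dpi 329.9, 204 and 70.6 and those at 7 dpi 131, 97.8 and 97.6. No time point differed from uninjured kidneys in the test, and slc13a1 did not pass the F-test (adjusted p = 0.108). slc16a13, a poorly known member of the same family as slc16a4, had 17.6, 32.7 and 23.9 FPKM at 1 dpi and fell at 3 dpi to 5.68, 4.32 and 5.57 FPKM, against 11.05, 18.8 and 9.87 in uninjured kidneys (-1.157 ± 0.28, adjusted p = 0.046, leave-one-out 0.14). slc16a12a and slc16a12b are paralogues of the mammalian creatine exporter. slc16a12a fell at 1 dpi (-1.07 ± 0.23, adjusted p = 0.024, leave-one-out 0.081) and 7 dpi (-1.54 ± 0.15, adjusted p = 0.016, leave-one-out 0.075), whereas slc16a12b had 15.4, 45.7 and 18.2 FPKM in uninjured kidneys, was not called against them, and had 6.64, 8.62 and 6.72 at 7 dpi, against 33.3, 19.5 and 42.6 at 3 dpi (-1.92 ± 0.30, adjusted p = 0.0091, leave-one-out 0.042). The remaining call was slc5a8, which carries lactate and other monocarboxylates and was lower at 7 dpi (-0.60 ± 0.14, adjusted p = 0.04, leave-one-out 0.12). slc5a8 did not pass the F-test (adjusted p = 0.111).

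**Figure D3:**
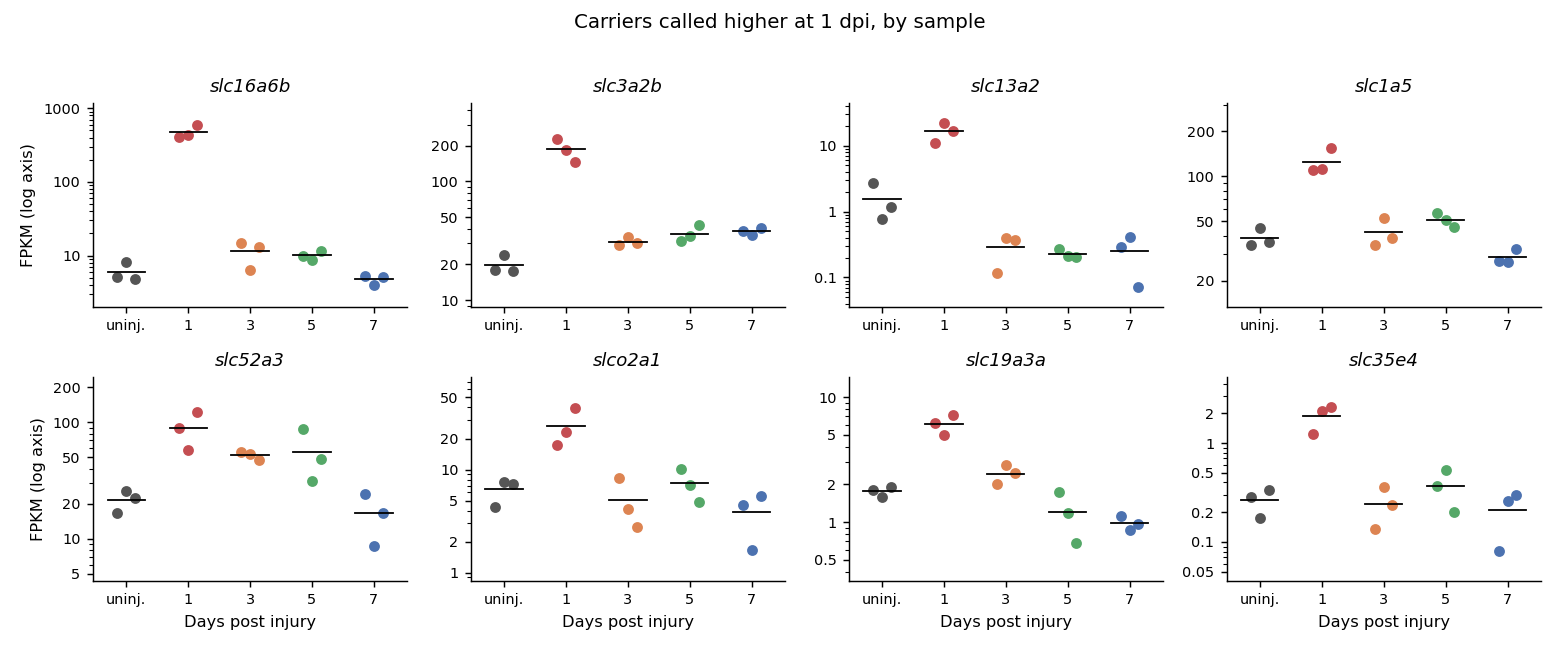
FPKM of 8 carriers called higher at 1 dpi, by sample, on logarithmic axes that differ between panels; points are the 3 samples of a group and bars their mean. In each panel all 3 samples at 1 dpi lie above the 3 uninjured samples (uninj.), and for slc16a6b they lie at 411 FPKM or more while the other samples are at 15.02 or less.

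Carriers of sugars and polyols had 0 rises and 4 falls at 1 dpi, 0 and 5 at 3 dpi, 1 and 2 at 5 dpi and 0 and 11 at 7 dpi, among 16. At 7 dpi 12.4% of all genes fell, and none of these 11 calls passed without each sample in turn. Their median log2 change at 7 dpi was -1.55, beside -0.22 for all genes. Their summed FPKM were 885 to 1238 in uninjured kidneys, 669 to 908 in the 1 dpi libraries, 454 to 921 in the 3 dpi libraries, 261 to 605 in the 5 dpi libraries and 329 to 349 in the 7 dpi libraries. slc5a2 (ENSDARG00000100919, chromosome 15, bases 14666563 to 14689416) is the sodium-glucose carrier that takes back most filtered glucose in mammals and is the target of gliflozin drugs. It had 134, 119.5 and 122 FPKM in uninjured kidneys. After injury, slc5a2 had 59.3, 78.1 and 77.2 in the 1 dpi samples, 21.7, 10.4 and 3.74 in the 3 dpi samples, 27.9, 24.4 and 9.61 in the 5 dpi samples and 19.3, 45.2 and 23.5 in the 7 dpi samples. The uninjured libraries lay close together and above all injured ones, and slc5a2 fell at 1 dpi (-0.81 ± 0.20, adjusted p = 0.033, leave-one-out 0.1), 3 dpi (-3.56 ± 0.54, adjusted p = 0.017, leave-one-out 0.073), 5 dpi (-2.67 ± 0.40, adjusted p = 0.023, leave-one-out 0.095) and 7 dpi (-2.15 ± 0.32, adjusted p = 0.02, leave-one-out 0.078). At 3 dpi its mean was 10.5-fold lower than in uninjured kidneys, and at 7 dpi 4.27-fold lower.

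slc2a2, through which glucose leaves the proximal tubule cell, had 45.7, 62.7 and 40.9 FPKM in uninjured kidneys. For slc2a2, the 1 dpi samples held 22.3, 18.7 and 47.9, the 3 dpi samples 19.1, 9.68 and 8.07, the 5 dpi samples 18.4, 15.3 and 6.73 and the 7 dpi samples 8.14, 14.6 and 10.6. It fell at 3 dpi (-1.9998 ± 0.34, adjusted p = 0.021, leave-one-out 0.083), 5 dpi (-1.89 ± 0.39, adjusted p = 0.042, leave-one-out 0.12) and 7 dpi (-2.08 ± 0.27, adjusted p = 0.016, leave-one-out 0.075). The span of slc2a2 on chromosome 2 encloses slc7a14a on the same strand, and how reads in shared bases were counted is not given. slc5a1, the other sodium-glucose carrier of the tubule and the main one of the gut, had 63.9, 73.9 and 97.5 FPKM at 1 dpi and 29.6, 57.1 and 23.3 in uninjured kidneys, a difference that did not pass the test (1.158 ± 0.36, adjusted p = 0.068). slc5a9, a mannose and fructose carrier, fell at 3 dpi (-1.08 ± 0.22, adjusted p = 0.03, leave-one-out 0.1) and 7 dpi (-2.05 ± 0.22, adjusted p = 0.016, leave-one-out 0.075). slc5a11, which carries inositol, fell at 3 dpi (-1.42 ± 0.27, adjusted p = 0.026, leave-one-out 0.076) and 7 dpi (-1.65 ± 0.21, adjusted p = 0.016, leave-one-out 0.076).

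The 2 most abundant sugar carriers, slc2a9l1 and slc2a12, were called lower at 7 dpi and not at 1, 3 or 5 dpi. slc2a9l1 is related to the urate carrier of mammals and had 169, 366 and 158 FPKM in uninjured kidneys. Injured kidneys had slc2a9l1 at 140.2, 70.6 and 134 in the 1 dpi samples, 397, 122 and 313 in the 3 dpi samples, 90.05, 114 and 37.3 in the 5 dpi samples and 67.9, 64.8 and 64.9 in the 7 dpi samples. Its change at 7 dpi was -1.68 ± 0.34, adjusted p = 0.031, leave-one-out 0.099. slc2a12, a glucose carrier, had 181, 165 and 232 FPKM in uninjured kidneys. The 1 dpi samples had 175, 259 and 282, the 3 dpi samples 164, 103 and 60.1, the 5 dpi samples 139.5, 90.3 and 55.6 and the 7 dpi samples 74.3, 52.95 and 48.7. Its change at 7 dpi was -1.71 ± 0.23, adjusted p = 0.017, leave-one-out 0.075. slc2a11b, slc2a11l and slc2a5, whose mammalian relatives carry fructose, fell at 1 dpi (-1.71 ± 0.38, adjusted p = 0.026, leave-one-out 0.072 for slc2a11b, -1.49 ± 0.34, adjusted p = 0.027, leave-one-out 0.082 for slc2a11l and -1.11 ± 0.21, adjusted p = 0.017, leave-one-out 0.07 for slc2a5). At 7 dpi they fell again (-1.55 ± 0.28, adjusted p = 0.024, leave-one-out 0.088 for slc2a11b, -1.55 ± 0.21, adjusted p = 0.017, leave-one-out 0.076 for slc2a11l and -1.09 ± 0.22, adjusted p = 0.03, leave-one-out 0.1 for slc2a5). slc2a5 also fell at 3 dpi (-1.45 ± 0.20, adjusted p = 0.013, leave-one-out 0.067). slc37a4a, the glucose-6-phosphate carrier of the endoplasmic reticulum, fell at 7 dpi (-0.70 ± 0.18, adjusted p = 0.046, leave-one-out 0.13).

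slc2a6, a relative of the glucose carriers found in lysosomes, ran against its class. It had 4.504, 6.43 and 7.901 FPKM in uninjured kidneys. Samples at 1 dpi had 10.4, 7.84 and 15.004, those at 3 dpi 8.89, 17.8 and 10.5, those at 5 dpi 25.2, 44.7 and 33.2 and those at 7 dpi 25.4, 27.1 and 5.86. The 5 dpi libraries were above all uninjured ones (2.27 ± 0.29, adjusted p = 0.019, leave-one-out 0.091), and 7 dpi replicate 3 was within the uninjured range. The 4 neutrophil and macrophage genes listed summed to 2289.8 to 2964 FPKM at 5 dpi and 1192 to 1364 in uninjured kidneys, and their part in the level of slc2a6 was not tested.

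Carriers of organic anions and cations had 3 rises and 3 falls at 1 dpi, 1 and 5 at 3 dpi, 0 and 2 at 5 dpi and 0 and 9 at 7 dpi, among 17. slc22a6l (ENSDARG00000055523, chromosome 21, bases 28441968 to 28457627), which the name table pairs with SLC22A8, is a relative of the basolateral anion exchangers through which drugs and uraemic toxins enter the tubule cell. It had 142, 120.1 and 129 FPKM in uninjured kidneys. After injury, slc22a6l had 22.5, 38.9 and 47.4 in the 1 dpi samples, 18.1, 17.1 and 1.13 in the 3 dpi samples, 37.3, 43.7 and 27.1 in the 5 dpi samples and 15.3, 32.1 and 9.66 in the 7 dpi samples. No injured library came near the uninjured range, and 3 dpi replicate 3 was the lowest. It fell at 1 dpi (-1.88 ± 0.30, adjusted p = 0.009, leave-one-out 0.041), 3 dpi (-3.86 ± 0.84, adjusted p = 0.035, leave-one-out 0.098), 5 dpi (-1.85 ± 0.22, adjusted p = 0.018, leave-one-out 0.082) and 7 dpi (-2.87 ± 0.41, adjusted p = 0.019, leave-one-out 0.079). slco1d1, a fish member of the organic anion transporting polypeptides, had 3.05, 3.55 and 2.87 FPKM in uninjured kidneys. For slco1d1, the 1 dpi samples held 2.84, 1.31 and 1.94, the 3 dpi samples 0.587, 0.325 and 0.262, the 5 dpi samples 0.335, 0.492 and 0.234 and the 7 dpi samples 0.426, 0.743 and 0.556. It fell at 3 dpi (-1.58 ± 0.19, adjusted p = 0.01, leave-one-out 0.062), 5 dpi (-1.62 ± 0.16, adjusted p = 0.016, leave-one-out 0.078) and 7 dpi (-1.402 ± 0.16, adjusted p = 0.016, leave-one-out 0.075), and had the smallest F-test p of its class (adjusted p = 4.8e-05).

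slco1f4 was the most abundant member, with 173, 403 and 236 FPKM in uninjured kidneys, 39.4, 59.04 and 101 at 3 dpi (-2.02 ± 0.44, adjusted p = 0.036, leave-one-out 0.12) and 35.2, 80.3 and 24.3 at 7 dpi (-2.602 ± 0.51, adjusted p = 0.029, leave-one-out 0.1). slc47a1 and slc47a2 are proton-coupled carriers of the kind that pass organic cations into the urine. slc47a2 had 57.4, 36.8 and 45.1 FPKM at 7 dpi, against 176, 253 and 119.6 in uninjured kidneys (-1.91 ± 0.32, adjusted p = 0.022, leave-one-out 0.082), and slc47a1 fell at 1 dpi (-1.66 ± 0.36, adjusted p = 0.024, leave-one-out 0.084) and 7 dpi (-1.43 ± 0.26, adjusted p = 0.024, leave-one-out 0.089). slc22a7b.1 and slc22a7b.2 were abundant and not called, with means of 100.3 and 77.3 FPKM over the 15 samples. The scarcer slc22a7b.3 beside them fell at 1 dpi to 0.138, 0.408 and 0.645 FPKM, against 4.04, 13.3 and 2.298 in uninjured kidneys (-2.17 ± 0.54, adjusted p = 0.037, leave-one-out 0.11). slco1f1 fell at 7 dpi (-1.81 ± 0.38, adjusted p = 0.031, leave-one-out 0.1), as did slco1f2 (-1.49 ± 0.32, adjusted p = 0.033, leave-one-out 0.11), which did not pass the F-test (adjusted p = 0.137).

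slco2a1, the carrier that takes up prostaglandins, had 4.38, 7.66 and 7.29 FPKM in uninjured kidneys. Injured kidneys had slco2a1 at 17.5, 23.1 and 39.5 in the 1 dpi samples, 8.25, 4.16 and 2.74 in the 3 dpi samples, 10.2, 7.05 and 4.88 in the 5 dpi samples and 4.51, 1.67 and 5.53 in the 7 dpi samples. It rose 4.14-fold at 1 dpi (1.85 ± 0.36, adjusted p = 0.018, leave-one-out 0.059), and later libraries overlapped the uninjured range. slco2b1, a broad anion carrier, rose at 1 dpi (0.82 ± 0.21, adjusted p = 0.042, leave-one-out 0.12) and 3 dpi (0.82 ± 0.19, adjusted p = 0.041, leave-one-out 0.14), and its 5 and 7 dpi libraries were also all above the uninjured ones without a call. slc22a4, whose mammalian relative carries the antioxidant ergothioneine, had 47.6, 53.8 and 43.6 FPKM in uninjured kidneys. The 1 dpi samples had 82.9, 83.2 and 142, the 3 dpi samples 19.7, 15.6 and 23.9, the 5 dpi samples 29.9, 27.6 and 9.25 and the 7 dpi samples 20.3, 14.4 and 16.3. It rose at 1 dpi (1.03 ± 0.27, adjusted p = 0.04, leave-one-out 0.11) and fell at 3 dpi (-1.26 ± 0.21, adjusted p = 0.02, leave-one-out 0.074) and 7 dpi (-1.46 ± 0.18, adjusted p = 0.016, leave-one-out 0.075). slc22a21, its neighbour in the carnitine carrier group, fell at 3 dpi (-1.11 ± 0.22, adjusted p = 0.027, leave-one-out 0.096) and 7 dpi (-0.999 ± 0.18, adjusted p = 0.024, leave-one-out 0.087).

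**Figure D4:**
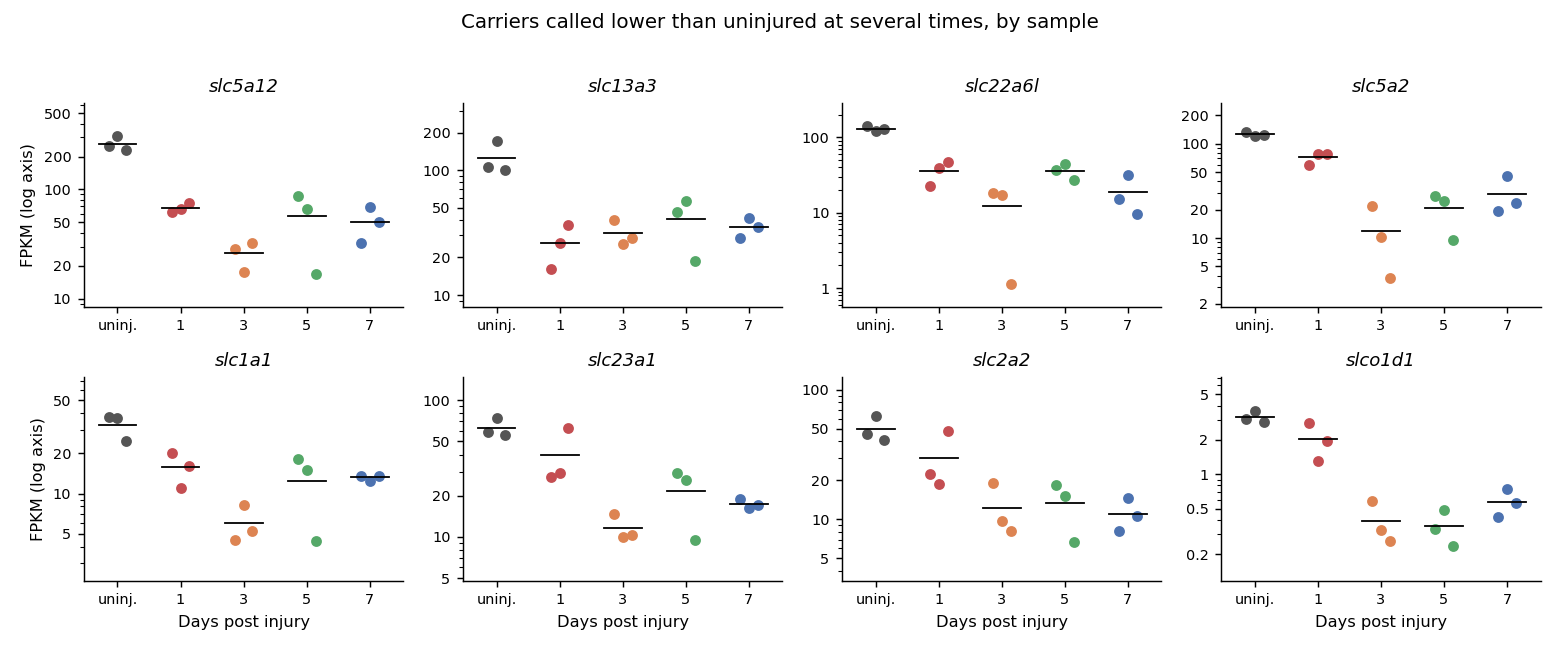
FPKM of 8 carriers called lower than in uninjured kidneys at 2 or more time points, by sample, on logarithmic axes that differ between panels; points are the 3 samples of a group and bars their mean. The 3 samples at 3 dpi lie below the 3 uninjured samples (uninj.) in each panel, and 5 dpi replicate 3 is the lowest of its group in each.

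Carriers of neurotransmitters, osmolytes and creatine had 0 rises at any time and 1, 1, 0 and 4 falls at 1, 3, 5 and 7 dpi, among 7. slc6a6a, which takes up the osmolyte taurine, had 83.7, 172 and 41.97 FPKM in uninjured kidneys. Samples at 1 dpi had 31.6, 6.54 and 46.95, those at 3 dpi 40.6, 41.5 and 129.8, those at 5 dpi 81.3, 56.7 and 14.2 and those at 7 dpi 12.4, 14.1 and 15.1. The uninjured and 3 dpi libraries spread widely, the 7 dpi libraries did not, and it fell at 7 dpi (-2.53 ± 0.49, adjusted p = 0.028, leave-one-out 0.097). slc6a6a did not pass the F-test (adjusted p = 0.056). slc6a2, the noradrenaline carrier, fell at 1 dpi to 19.3, 8.39 and 17.98 FPKM, against 53.3, 71.4 and 34.96 in uninjured kidneys (-1.76 ± 0.40, adjusted p = 0.027, leave-one-out 0.086), and at 7 dpi (-1.32 ± 0.34, adjusted p = 0.047, leave-one-out 0.14). slc6a11b, a carrier of GABA, fell at 3 dpi (-2.06 ± 0.28, adjusted p = 0.013, leave-one-out 0.053) and 7 dpi (-2.17 ± 0.28, adjusted p = 0.016, leave-one-out 0.075). slc6a8, the creatine carrier, had 4.61, 5.11 and 5.59 FPKM in uninjured kidneys. After injury, slc6a8 had 8.08, 11.4 and 19.7 in the 1 dpi samples, 2.29, 3.68 and 3.66 in the 3 dpi samples, 9.52, 4.799 and 6.35 in the 5 dpi samples and 3.099, 1.36 and 2.02 in the 7 dpi samples. Its 1 dpi libraries were all above the uninjured ones without passing the test (1.12 ± 0.34, adjusted p = 0.062), it fell at 7 dpi (-0.98 ± 0.25, adjusted p = 0.047, leave-one-out 0.13), and its F-test p was the smallest of the class (adjusted p = 0.0016). slc6a13l had a mean of 6.87 FPKM and was called at no time point.

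Carriers of vitamins had 2 rises and 0 falls at 1 dpi, 1 and 2 at 3 dpi, 0 calls at 5 dpi and 0 rises and 3 falls at 7 dpi, among 5. All 5 passed the F-test, which 64.5% of all genes tested also passed. slc52a3, the riboflavin carrier, had 16.7, 25.5 and 22.2 FPKM in uninjured kidneys. For slc52a3, the 1 dpi samples held 90.01, 57.8 and 122, the 3 dpi samples 55.9, 53.5 and 47.2, the 5 dpi samples 87.7, 31.3 and 47.96 and the 7 dpi samples 24.2, 8.74 and 16.7. It rose at 1 dpi (1.97 ± 0.32, adjusted p = 0.0096, leave-one-out 0.042) and 3 dpi (1.26 ± 0.21, adjusted p = 0.02, leave-one-out 0.08), and at 7 dpi it was back in or below the uninjured range. slc19a3a, the thiamine carrier, had 1.797, 1.59 and 1.92 FPKM in uninjured kidneys. Injured kidneys had slc19a3a at 6.23, 4.95 and 7.23 in the 1 dpi samples, 2.03, 2.85 and 2.45 in the 3 dpi samples, 1.75, 1.18 and 0.679 in the 5 dpi samples and 1.11, 0.865 and 0.966 in the 7 dpi samples. It rose at 1 dpi (1.35 ± 0.24, adjusted p = 0.013, leave-one-out 0.052). slc23a1, which takes back vitamin C in the proximal tubule, had 58.2, 73.8 and 55.98 FPKM in uninjured kidneys. The 1 dpi samples had 27.3, 29.4 and 62.4, the 3 dpi samples 14.7, 9.91 and 10.3, the 5 dpi samples 29.4, 26.1 and 9.57 and the 7 dpi samples 18.9, 16.3 and 17.04. It fell at 3 dpi (-2.34 ± 0.22, adjusted p = 0.0085, leave-one-out 0.044) and 7 dpi (-1.78 ± 0.17, adjusted p = 0.016, leave-one-out 0.075). slc5a6a, the carrier of biotin and pantothenate, fell at 3 dpi (-1.13 ± 0.28, adjusted p = 0.047, leave-one-out 0.15) and 7 dpi (-1.36 ± 0.31, adjusted p = 0.038, leave-one-out 0.11), and slc23a3 fell at 7 dpi (-1.03 ± 0.21, adjusted p = 0.031, leave-one-out 0.093).

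Of the peptide carriers, slc15a2, the high-affinity form of the kidney, had 29.9, 39.8 and 28.3 FPKM in uninjured kidneys. Samples at 1 dpi had 6.53, 12.7 and 19.7, those at 3 dpi 16.1, 12.1 and 8.78, those at 5 dpi 16.4, 20.5 and 11.7 and those at 7 dpi 11.9, 13.97 and 10.6. It was below every uninjured library at all times and fell at 3 dpi (-1.36 ± 0.26, adjusted p = 0.026, leave-one-out 0.094) and 7 dpi (-1.35 ± 0.20, adjusted p = 0.02, leave-one-out 0.079). slc15a1b, the form of the intestine, had a mean of 0.506 FPKM and no call. Of the nucleotide sugar carriers by family, slc35e4, whose substrate is not known, had 1.25, 2.12 and 2.32 FPKM at 1 dpi and 0.282, 0.173 and 0.337 in uninjured kidneys (1.18 ± 0.20, adjusted p = 0.011, leave-one-out 0.048), and slc35f2l was not called. Of the 5 carriers of nucleosides and nucleobases, slc28a1 fell at 3 dpi (-1.42 ± 0.31, adjusted p = 0.035, leave-one-out 0.12) and 7 dpi (-1.23 ± 0.27, adjusted p = 0.035, leave-one-out 0.11). slc43a3b, a purine nucleobase carrier and the most abundant of them, and slc29a2, which moves nucleosides in both directions, had no call, with 21.3, 20.2 and 17.96 FPKM at 5 dpi and 6.26, 6.54 and 13.7 in uninjured kidneys for slc43a3b.

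Between 7 dpi and 3 dpi, which share no sample with the uninjured group, 12 carriers were lower at 7 dpi and 4 higher. The largest falls were slc6a6a (-2.05 ± 0.44, adjusted p = 0.026, leave-one-out 0.08), slc7a9, slc16a12b, slc2a9l1 (-1.89 ± 0.42, adjusted p = 0.028, leave-one-out 0.089), slc52a3 (-1.6997 ± 0.34, adjusted p = 0.022, leave-one-out 0.068), slc3a1, slc2a11a (-1.43 ± 0.25, adjusted p = 0.013, leave-one-out 0.049) and slc13a1 (-1.37 ± 0.32, adjusted p = 0.03, leave-one-out 0.1). None of these 8 was called lower than in uninjured kidneys at 3 dpi, and each had its lowest group mean at 7 dpi. Choosing the largest falls from 3 to 7 dpi favours both traits, so they are not a separate result. The proximal tubule markers had means of 4.23 to 4.41 in the 7 dpi libraries and 4.07 to 4.29 in the 3 dpi libraries. Among these markers, pdzk1 was lower at 7 dpi than at 3 dpi (-0.87 ± 0.18, adjusted p = 0.023). The markers lrp2a, cubn, dab2 and amn were not called between these times, and no single result is given for the other listed markers. The part of tubule cells in the carriers' falls between 3 and 7 dpi was not tested. The other falls were slc47a2 (-1.01 ± 0.27, adjusted p = 0.046, leave-one-out 0.12), slc38a2, which takes up small neutral amino acids (-0.999 ± 0.26, adjusted p = 0.041, leave-one-out 0.11), slc5a9 (-0.97 ± 0.18, adjusted p = 0.016, leave-one-out 0.058) and slc19a3a (-0.79 ± 0.16, adjusted p = 0.024, leave-one-out 0.086). Without 7 dpi replicate 3 the count was 4 in place of 16, with the ovary gene mean as a covariate in a fit on all 15 samples it was 2, and with all 15 samples alone it was 9.

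Of the 4 carriers higher at 7 dpi than at 3 dpi, slc43a3a, a relative of slc43a3b, had 8.16, 9.12 and 11.98 FPKM at 7 dpi and 4.06, 3.48 and 2.94 at 3 dpi (1.25 ± 0.21, adjusted p = 0.012, leave-one-out 0.051), and slc1a1 had a log2 change of 1.06 ± 0.23, adjusted p = 0.026, leave-one-out 0.089. The other 2, slc2a15b and slc5a5, moved with the ovary genes and did not pass the F-test (adjusted p = 0.275 and 0.324). slc2a15b had 7.29, 0.173 and 7.85 FPKM in uninjured kidneys. After injury, slc2a15b had 0.333, 2.82 and 0.276 in the 1 dpi samples, 0.0323, 0.464 and 0.248 in the 3 dpi samples, 5.08, 0.512 and 0.137 in the 5 dpi samples and 0.977, 0.8598 and 1.73 in the 7 dpi samples. The uninjured replicates 1 and 3, 1 dpi replicate 2 and 5 dpi replicate 1 were the highest, which are the libraries with the most ovary RNA. Its call at 7 dpi against 3 dpi (0.80 ± 0.19, adjusted p = 0.034, leave-one-out 0.095) turned to -0.44 with the ovary gene mean as a covariate. slc5a5, the iodide carrier, had no read in any 3 dpi library and 5 to 10 reads at 7 dpi, which is at least 2.16-fold higher against a floor of 3 reads per library. Its call (0.28 ± 0.07, adjusted p = 0.031, leave-one-out 0.088) turned to -0.37 with that covariate. slc16a1a followed the same libraries, with 2.33, 0.0754 and 2.405 FPKM in uninjured kidneys. The part of ovary RNA in these levels was not tested further.

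**Figure D5:**
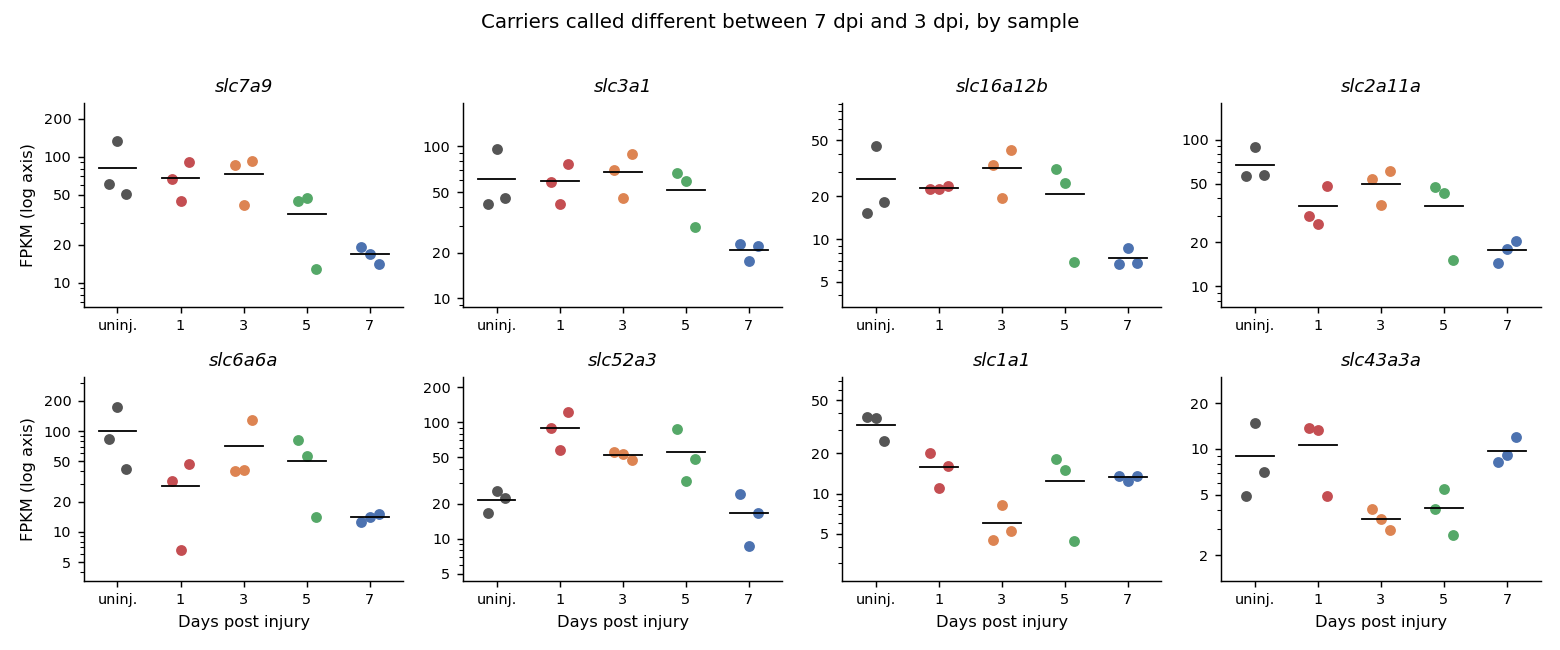
FPKM of 8 carriers called different between 7 dpi and 3 dpi, by sample, on logarithmic axes that differ between panels; points are the 3 samples of a group and bars their mean. For slc7a9, slc3a1, slc16a12b, slc2a11a, slc6a6a and slc52a3 the 3 samples at 7 dpi lie below the 3 samples at 3 dpi, and for slc1a1 and slc43a3a above them.

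Other genes of tubular transport were taken from a list of regulators, brush border and endocytosis genes, sodium pump subunits and amino acid response genes, for which no leave-one-out values are given. Of 18 brush border and endocytosis genes, 9 were listed, and 0 rose while 4, 3, 1 and 6 fell at 1, 3, 5 and 7 dpi. Among all genes, 6.9%, 6.91%, 1.46% and 12.4% fell at these times. Between 7 dpi and 3 dpi, 0 of the 9 were higher at 7 dpi and 2 were lower, against 6.49% of all genes lower. These were pdzk1 (-0.87 ± 0.18, adjusted p = 0.023) and ezra (-1.47 ± 0.21, adjusted p = 0.0072). lrp2a, which encodes the endocytic receptor megalin, had 1.95, 5.55 and 11.6 FPKM at 1 dpi, 7.43, 4.95 and 1.34 at 3 dpi, 14.5, 13.2 and 6.66 at 5 dpi and 4.23, 7.36 and 6.05 at 7 dpi, against 53.5, 40.2 and 38.8 in uninjured kidneys (at 3 dpi, log2 change -3.19 ± 0.48, adjusted p = 0.016). Its partner cubilin (cubn) and the adaptor dab2 fell at 1, 3 and 7 dpi, with log2 changes of -2.37 and -1.64 at 3 dpi. pdzk1, a scaffold of apical carriers, fell at 7 dpi (-1.56 ± 0.17, adjusted p = 0.016), as did vil1 (-1.38 ± 0.33, adjusted p = 0.042) and ezra (-1.21 ± 0.29, adjusted p = 0.041), which organise microvilli. Of the 9 genes, 5 were also among the proximal tubule markers.

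Of the regulators, hnf4a, which encodes a nuclear receptor that drives proximal tubule genes in mice, had 7.02, 6.15 and 5.42 FPKM at 1 dpi and 6.86, 7.19 and 4.73 at 7 dpi, against 20.5, 21.97 and 15.2 in uninjured kidneys, and fell at both (log2 change -1.48 ± 0.24, adjusted p = 0.0091 at 1 dpi and -1.48 ± 0.23, adjusted p = 0.02 at 7 dpi). Of 10 amino acid response genes, 6 were listed, and 3 rose at 1 dpi, where 12.9% of all genes rose. Not called at 1 dpi were phgdh (-1.08 ± 0.72, adjusted p = 0.3), psat1 (-0.69 ± 0.41, adjusted p = 0.25) and sesn2 (0.38 ± 0.31, adjusted p = 0.39). The part of this response in the carriers' levels was not tested. atf4b, a transcription factor of this response that induces amino acid carriers in mammals, had 459, 625 and 733 FPKM at 1 dpi, against 118, 114 and 91.7 in uninjured kidneys (2.46 ± 0.25, adjusted p = 0.0017), and ddit3 (3.63 ± 0.27, adjusted p = 0.00063) and ddit4 (2.41 ± 0.65, adjusted p = 0.047) rose with it. ddit3 also rose at 3 dpi (0.83 ± 0.16, adjusted p = 0.026). At 7 dpi none of the 6 passed the test against uninjured kidneys. Against 3 dpi, psat1, an enzyme of serine synthesis, was higher at 7 dpi (1.56 ± 0.26, adjusted p = 0.012) and ddit3 lower (-0.93 ± 0.16, adjusted p = 0.013). The only sodium pump subunit listed, atp1b1b, was called at no time point.

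Several carriers lie beside each other on GRCz11, the build that the labels name. slc22a7b.3, slc22a7b.2 and slc22a7b.1 follow each other on chromosome 17 with 335 and 1304 bases between them, and slc6a18, slc6a19a.1 and slc6a19a.2 on chromosome 19 with 6356 and 6788. On chromosome 21, slc22a4 ended 1384 bases before slc22a21, and slc47a1 18238 bases before slc47a2. On chromosome 4, 15395 bases separated slco1f1 and slco1f4. Neighbours did not always share their calls. At 1 dpi slc22a4 was called higher and slc22a21 was not called (0.47 ± 0.40, adjusted p = 0.39), and slc22a7b.3 was called lower while slc22a7b.1 (-0.86 ± 0.40, adjusted p = 0.17) and slc22a7b.2 (-0.47 ± 0.31, adjusted p = 0.3) were not, and these differences between neighbours were not tested. How reads that fit more than 1 of such copies were counted is not given, so the split of reads between them is uncertain.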

How the data were processed

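The authors deposited FPKM per gene, with reads counted by featureCounts 1.5.0-p3, gene models from StringTie 1.3.3b and genes called with DESeq2; GRCz11 is the build in the labels, and the aligner is not given in the sources used here. The table also holds a group code per gene, which was not used. Whole reads were recovered from the steps of the FPKM for 5686 of 5686 genes (tolerance 0.0001), and may be read pairs. limma 3.58.1 in R 4.3.3 was fitted to log2(FPKM + 1) of the 6 samples of each comparison, with a trend, two-sided, for 5685 genes above 0 in at least 3 samples, with Benjamini-Hochberg adjustment over all of them, at a threshold of 0.05. The F-test used all 15 samples. Fits were tested on simulated data in which few genes changed, unlike in this table, so that test cannot give error rates for these data. Alternatives were a pseudocount of 0.1, no filter or a mean of at least 1 FPKM, 2 scalings, a replicate block, an ovary covariate, limma voom on the recovered reads, a fit on all 15 samples, and each sample left out. Named in the text were the 3 most abundant carriers of each class, the smallest F-test p of each class, the 8 largest rises and falls of each comparison without overlap, and listed genes of the other lists that passed (1 of them is not reported here); further called or paralogous carriers were named after their values were seen. The carriers, lists and tests were chosen with earlier results of these data known. All 95 gene IDs were in the name table, 23 with the same symbol.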

Additional observations from a re-analysis of the deposited data

Results flagged for a closer look

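For 16 carriers the change from uninjured kidneys differed between 7 dpi and 3 dpi in the limma test of 7 dpi against 3 dpi. The log2 difference was -2.05 for slc6a6a, -1.98 for slc7a9, -1.92 for slc16a12b, -1.89 for slc2a9l1, -1.70 for slc52a3, -1.62 for slc3a1, -1.43 for slc2a11a and -1.37 for slc13a1. It was -1.01 for slc47a2, -0.999 for slc38a2, -0.97 for slc5a9 and -0.79 for slc19a3a. It was 0.28 for slc5a5, 0.80 for slc2a15b, 1.06 for slc1a1 and 1.25 for slc43a3a.

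For 8 carriers every sample at 1 dpi lay above all uninjured samples and every sample at a later time below them, and the difference between the times was not tested against 1 dpi. The share of all genes with such a course was not counted, so whether this number is unusual for the table is not known. Their log2 change at 1 dpi was 0.72 for slc38a2 and 1.27 for slc10a3, whose samples were all below at 7 dpi, and 1.67 for slc1a5, whose samples were also all above at 5 dpi and all below at 7 dpi. It was 1.12 for slc6a8, with all samples below at 3 and 7 dpi, and 0.57 for slco5a1, with all below at 5 and 7 dpi. It was 2.79 for slc13a2 and 1.03 for slc22a4, whose samples were all below at 3, 5 and 7 dpi, and 1.35 for slc19a3a, whose samples were also all above at 3 dpi and below at 7 dpi.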

How the results depend on the processing

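The table holds mostly genes that were called different, and groups have 3 samples, so adjusted p-values near 0.05 are fragile here and low FPKM limit what can be seen for the scarcest carriers. Counts of called carriers were 27, 25, 7 and 42 at 1, 3, 5 and 7 dpi, 16 between 7 dpi and 3 dpi and 71 in the F-test. With 1 sample left out they ranged over 10 to 29, 3 to 34, 0 to 5, 0 to 51, 4 to 15 and 56 to 72. The replicate block gave 6, 0, 0, 0, 12 and 61 calls. The sources used here do not say whether samples with the same replicate number belong together. The mean correlation of same-numbered deviations was -0.46, -0.16, 0.31, 0.10 and 0.06 in the 5 comparisons. At 5 dpi against uninjured kidneys it was 0.51, 0.77 and -0.35 for replicates 1, 2 and 3. With 3 samples per group these values cannot decide whether the replicate numbers pair the samples. The fit on all 15 samples gave 33 calls at 5 dpi and 9 between 7 dpi and 3 dpi, and the ovary covariate 28 and 2. At 7 dpi, median-of-ratios scaling gave 28 calls and quantile normalization 24. With the ovary covariate, the change between 7 dpi and 3 dpi turned to -0.37 for slc5a5 and to -0.44 for slc2a15b. Of 1752 alternative values of the 117 called changes, 1137 kept their direction and their side of the threshold, 613 kept the direction and lost the call, and 2 reversed.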

Other observations

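Some carriers without a call against uninjured kidneys passed the F-test over the 5 groups. slco3a1, a broad anion carrier, had 9.12, 13.7 and 16.3 FPKM at 5 dpi and 5.55, 5.88 and 5.88 in uninjured kidneys, with an F-test adjusted p of 0.023. slc36a4, a proton-coupled amino acid carrier, had 6.695, 8.77 and 10.2 FPKM at 1 dpi and 3.92, 4.88 and 4.76 in uninjured kidneys, with an F-test adjusted p of 0.017. slc45a2, known for its role in pigment cells, had 4.45, 1.97 and 1.51 FPKM at 1 dpi and 0.207, 0.873 and 0.645 in uninjured kidneys, with an F-test adjusted p of 0.0044. slc6a14, a broad carrier of neutral and basic amino acids, varied widely, with 57.9, 12.8 and 42.7 FPKM at 3 dpi and 5.48, 24.3 and 9.36 in uninjured kidneys, and did not pass the F-test (adjusted p = 0.19).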
